A study of Mus musculus with 8 samples.

Results

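Heat shock chaperones were read in kidney RNA of mice that lack Keap1, as a set of 10 genes among the 13570 named genes tested. The members were listed by symbol: Hspa1a, Hspa1b, Hspa8 and Hsph1 of the Hsp70 and Hsp110 class, Hspb1 and Hspb8 of the small heat shock proteins, Dnaja1 and Dnajb1 of the J-domain proteins, Hsp90aa1 of the Hsp90 class and Hspd1 of the mitochondrial chaperonins. Each of 8 mice, aged 8 weeks, gave kidney RNA for 1 Agilent mouse array in 1 colour. The 4 NEKO mice (Keap1-/-, Nrf2 Flox/Flox, K5-Cre) lack Keap1 throughout the body and lose Nrf2 where the keratin 5 promoter drives Cre, in squamous epithelium. The 4 control mice were Keap1+/- and Nrf2 Flox/Flox. K5-Cre was carried by 3 of them (K1Cre) and not by the other, a female (K1), which is control 1 below. Each group held 2 females and 2 males on a mixed 129Sv/J and C57BL/6J background. All 8 mice therefore carry floxed Nrf2, and no mouse had 2 intact copies of Keap1. All females were on 1 slide and all males on another, and the effects of sex and of slide therefore cannot be told apart.

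Chaperones of these classes bind proteins that have not reached their folded state. Small heat shock proteins hold such clients without using ATP, J-domain proteins hand clients to Hsp70, Hsp110 proteins reset Hsp70 by exchanging its nucleotide, and Hsp90 takes over clients that are already partly folded. Heat shock factor 1 is the main inducer of the stress-responsive members and binds heat shock elements, which are runs of alternating GAA and TTC units. Keap1 is the adaptor that marks the transcription factor Nrf2 for degradation, and Nrf2 binds antioxidant response elements. Tubule cells of the inner medulla live in hypertonic fluid and are known for high amounts of chaperones.

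The sequences before the start sites are shown for the member with the largest difference (Hspb8), the near-identical stress-inducible pair (Hspa1a and Hspa1b), the other small heat shock member (Hspb1) and the member with the longest run of heat shock units (Hspd1). They are from RefSeq on GRCm38.p6, read 5′ to 3′ on the strand of the gene, and end at the base before the start site. Capitals mark GAANNTTC or TTCNNGAA, which is a pair of adjoining heat shock units and reads alike on both strands. The windows lie on the minus strand at chr5:116422865-116423114 (Hspb8), chr17:34972157-34972406 (Hspa1a) and chr17:34959239-34959488 (Hspa1b), and on the plus strand at chr5:135887669-135887918 (Hspb1). The stretch of Hspd1 is on the minus strand at chr1:55088053-55088082, from -150 to -121 relative to its start site.
Hspb8: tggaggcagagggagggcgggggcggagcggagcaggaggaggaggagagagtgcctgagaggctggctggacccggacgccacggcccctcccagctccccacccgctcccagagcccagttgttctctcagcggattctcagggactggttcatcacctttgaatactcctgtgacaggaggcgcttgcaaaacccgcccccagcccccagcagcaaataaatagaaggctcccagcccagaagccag
Hspa1a: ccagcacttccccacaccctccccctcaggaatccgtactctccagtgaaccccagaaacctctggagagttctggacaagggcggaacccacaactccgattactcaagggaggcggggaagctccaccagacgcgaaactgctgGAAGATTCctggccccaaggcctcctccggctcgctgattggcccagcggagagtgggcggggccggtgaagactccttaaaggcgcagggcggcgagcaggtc
Hspa1b: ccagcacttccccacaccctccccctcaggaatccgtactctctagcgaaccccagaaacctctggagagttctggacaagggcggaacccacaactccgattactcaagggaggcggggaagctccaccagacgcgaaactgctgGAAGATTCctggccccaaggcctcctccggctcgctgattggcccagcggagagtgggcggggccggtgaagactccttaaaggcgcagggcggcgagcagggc
Hspb1: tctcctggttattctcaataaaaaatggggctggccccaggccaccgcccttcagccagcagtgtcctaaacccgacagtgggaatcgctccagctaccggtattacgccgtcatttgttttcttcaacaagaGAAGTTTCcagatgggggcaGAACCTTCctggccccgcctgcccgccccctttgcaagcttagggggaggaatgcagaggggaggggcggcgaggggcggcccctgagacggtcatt
Hspd1: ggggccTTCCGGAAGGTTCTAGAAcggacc

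The windows of Hspa1a and Hspa1b were identical at 247 of 250 bases (98.8%), and each held a single pair of units from -104 to -97. Hspb1 held 2 pairs. The stretch of Hspd1 held 3 overlapping pairs from -144 to -127, which together are 4 alternating units, TTC and GAA in turn with 2 bases between them, and so hold the 3-unit form at 2 overlapping places. No pair of units was found in the 250 bases before the start of Hspb8, and none of the form TGACNNNGC of the antioxidant response element on either strand. RefSeq windows were on hand for 8 of the 10 members, with 13 start sites (Hspa8 and Hsp90aa1 had none). A pair of heat shock units was found in 7 of the 13 windows and in 6 of the 8 genes, whereas 12.8% of all 32851 windows of the same length held one. The 3-unit form was found at 1 start of Hspd1 and in 0.466% of all windows. The antioxidant response element was found before both starts of Hsph1, whose windows overlap, and 1 start of Dnajb1, and in 10.2% of all windows. These matches describe letters in a window and are not binding sites. Bases outside the windows were not searched, so a window without a match does not show that its gene lacks the element.

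**Figure D1:**
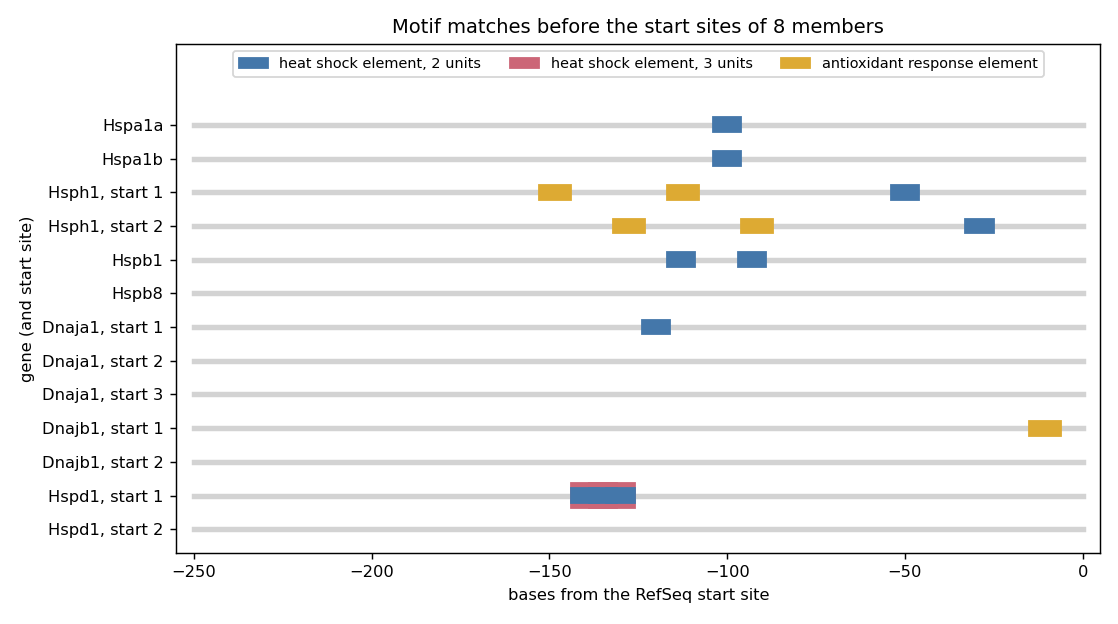
Motif matches in the 250 bases before 13 RefSeq start sites of 8 members. The x axis gives bases from the start site, each grey line is 1 window, and boxes mark a pair of heat shock units (blue), 3 units (red) and the antioxidant response element (yellow). Hspb8 had no match, and Hspa1a and Hspa1b had theirs at the same place.

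Levels are given on the log2 scale against the 75th percentile of each array, so that 0 is the signal which 75% of the probes do not exceed. The share of probes well above background ranged from 61.7% to 65.7% over the arrays, and no spot was saturated. Keap1 lay between 1.77 and 1.92 in the control mice and between 0.06 and 0.45 in the NEKO mice, and Nqo1, a prototypical target of Nrf2, lay between 1.24 and 2.46 and between 3.89 and 5.45. Both separated the groups in the direction of the labels. Markers of the proximal tubule and thick ascending limb were detected in every mouse, with Slc34a1 between 6.78 and 7.17 and Umod between 7.26 and 8.01. In whole kidney RNA, fewer cells of a type and less RNA per cell cannot be told apart.

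None of the 10 members was called higher or lower in the NEKO mice (limma, Benjamini-Hochberg adjusted p under 0.05), whereas 44 of all 19593 genes and unnamed transcripts were called (0.225%), 19 of them higher (0.097%) and 25 lower (0.128%). Nqo1 stood 6.16-fold higher in the NEKO mice and was not called either (adjusted p = 0.065 in limma). A gene that was not called may therefore still differ between the groups. At an unadjusted p under 0.05, 1 member was higher (Hspb8) and 0 were lower, against 7.39% and 10.6% of all features. The groups did not overlap for Hspb8 and overlapped for the other 9. Among all features, 3.89% lay apart with NEKO higher and 5.39% with NEKO lower. Of the members, 8 had a difference below 0, and 56.2% of all features did. The median difference of the members was -0.12 on the log2 scale, and that of all features was -0.03. The 95% interval of the difference lay within 1 log2 unit of 0, that is within 2-fold either way, for 9 of the 10 members and for 85.9% of all features. A total of 17 probes represent the members, and each was well above background on all 8 arrays.

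**Figure D2:**
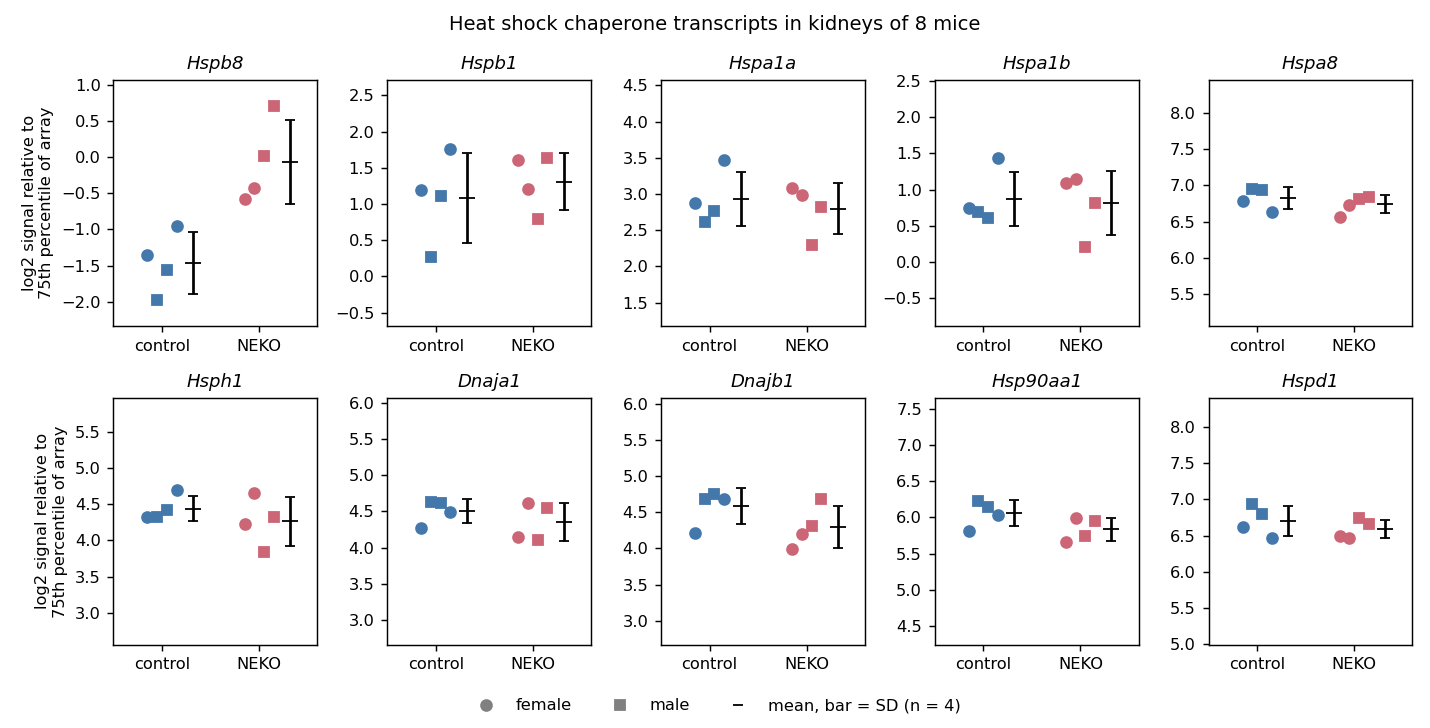
Level of each member in 4 control mice (blue) and 4 NEKO mice (red), in log2 units against the array's 75th percentile. Circles are females, squares are males, and the black marks are the mean and SD of 4 mice. Each panel spans the same number of log2 units. Hspb8 is the panel in which no NEKO mouse falls among the controls.

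Among the small heat shock members, Hspb8 stood 2.62-fold higher in the NEKO mice, with a 95% interval of 1.51 to 4.52. Hspb8 is a small heat shock protein that works with Bag3 in the disposal of misfolded proteins. Its level was -1.35, -1.98, -1.56 and -0.95 in control mice 1, 4, 7 and 8, and -0.57, -0.43, 0.01 and 0.71 in NEKO mice 2, 3, 5 and 6. The lowest NEKO mouse exceeded the highest control mouse, and both female NEKO mice lay nearer to the controls than the males did. The log2 difference was 1.39 (SE 0.33, n = 4 in each group), with an unadjusted p of 0.00421 and an adjusted p of 0.128 in limma. The exact two-sided permutation test of 4 mice against 4 gave p = 0.0286, the smallest value this design allows. A difference of at least this size in the same direction was seen in 0.664% of all features tested. Hspb8 is read from 1 probe.

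The difference of Hspb8 was 0.65 on the log2 scale in the females (1.57-fold) and 2.13 in the males (4.37-fold), from 2 mice against 2. The interaction of sex and genotype was 1.48 (SE 0.39), with an unadjusted p of 0.00884 and an adjusted p of 0.238 in limma. Across all features, 10.5% had an unadjusted interaction p under 0.05 and 0.0153% passed the adjustment. When the difference was averaged over the sexes in the model that holds this interaction, a choice made after seeing the data, the adjusted p of Hspb8 was 0.0282. That setting called 245 features higher (1.25%). Leaving out 1 mouse at a time gave differences between 1.10 (without NEKO 6) and 1.62 (without control 8), and none of these passed the adjustment.

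Markers of other cell types also moved between the groups, and their part in the difference of Hspb8 was not tested. At an unadjusted p under 0.05 in limma, 7.39% of all features were higher and 10.6% were lower. Of 5 intercalated cell markers, 3 were lower on these terms, while Slc4a1 (-0.91) and Foxi1 (-0.09) did not pass. The summed level of the list lay between 5.15 and 5.58 in the controls and between 2.64 and 4.54 in the NEKO mice. Slc26a4, with a control mean of 4.69 and a log2 difference of -2.07, weighs most in that sum. Of 3 distal convoluted tubule markers, all 3 were lower on the same terms, and the log2 difference was -0.57 for Slc12a3, -0.81 for Trpm6 and -1.12 for Pvalb. Their summed level was 2.79 to 3.37 in the controls and 1.87 to 3.35 in the NEKO mice, which overlap. Of 5 urothelial markers, 3 were higher on the same terms, among them Krt5 by 1.85 on the log2 scale. Upk1a went the other way (-0.71, unadjusted p = 0.0586 in limma) and lay apart, with every NEKO mouse lower. The list's summed level was 0.17 to 1.502 in the controls and 1.21 to 2.53 in the NEKO mice, which overlap. Of 3 neutrophil markers tested, 2 were higher on those terms (S100a8, well above background on 1 control array and 3 NEKO arrays, and S100a9), with summed levels of -2.16 to -0.92 and -1.50 to 2.74. The smooth and striated muscle list, which is of note because Hspb8 is abundant in muscle, had 1 of 7 tested genes called, Myh7. Its probe was well above background on 4 of 4 control arrays and on 0 of 4 NEKO arrays, and was at least 2.91-fold higher in the controls (adjusted p = 0.00775 in limma). This fold is a bound, with a NEKO array below the lowest signal well above background set to that signal. The other tested genes of this list went both ways, and none passed an unadjusted p under 0.05 in limma. Log2 differences were 0.26 for Acta2, 0.41 for Myh11, 0.17 for Actg2 and 0.24 for Acta1, but -0.68 for Tagln and -0.21 for Des. The median of the list was 0.17. Its summed level was 4.36 to 5.59 in the controls and 3.84 to 4.87 in the NEKO mice, which overlap. Tagln, with a control mean of 4.28, weighs most in that sum, and Ckm was not above background. Of the other 9 marker lists, the proximal tubule had 2 of 6 genes higher and 1 lower at an unadjusted p under 0.05, the inner medulla 2 of 5 lower, the macrophage list 1 of 5 higher and the erythroid list 1 of 2 higher, while the remaining 5 lists had 0. The summed levels of these 4 lists overlapped between the groups.

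Hspb1, the small heat shock protein also known as Hsp25, had the widest spread of the 10 members among the controls (SD 0.62). Its level was 1.19, 0.27, 1.10 and 1.76 in control mice 1, 4, 7 and 8, and 1.61, 1.21, 0.79 and 1.63 in NEKO mice 2, 3, 5 and 6. Control 4 was the lowest of the 8 and control 8 the highest, so the NEKO mice lay inside the control range. The log2 difference was 0.23 (SE 0.29, interval -0.45 to 0.91, adjusted p = 0.69 in limma), and it was -0.00010 without NEKO 6. Of the other small heat shock genes, 6 of 7 were tested and 0 were called, with a median difference of -0.18. The largest were Hspb6 (-0.34, adjusted p = 0.20 in limma) and Cryab (0.30, adjusted p = 0.43), which encodes an abundant crystallin of the renal medulla.

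Of the Hsp70 class, Hspa1a and Hspa1b are the stress-inducible genes and lie next to each other on chromosome 17. Hspa1a had levels of 2.87, 2.62, 2.77 and 3.46 in control mice 1, 4, 7 and 8, and of 3.08, 2.98, 2.29 and 2.83 in NEKO mice 2, 3, 5 and 6. Hspa1b had levels of 0.75, 0.69, 0.61 and 1.43 in the controls and of 1.09, 1.15, 0.20 and 0.81 in the NEKO mice, in the same order. In both genes control 8 was the highest mouse and NEKO 5 the lowest, and the groups overlapped. The log2 difference was -0.13 for Hspa1a (SE 0.16, interval -0.52 to 0.25, adjusted p = 0.68) and -0.06 for Hspa1b (SE 0.19, interval -0.49 to 0.38, adjusted p = 0.89, both in limma). As folds, the intervals were 0.696 to 1.19 and 0.710 to 1.31, so changes of 2-fold lie outside them. The second probes of both genes gave -0.17 and -0.05. The difference of Hspa1b changed sign without NEKO 5 (0.08) and without control 8 (0.06). The genes are near-identical copies, and RNA of either may bind the probes of the other.

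Hspa8, the constitutive Hsp70 of the cytosol, varied least among the members of this class. It had levels of 6.78, 6.95, 6.94 and 6.63 in control mice 1, 4, 7 and 8 and of 6.56, 6.73, 6.81 and 6.84 in NEKO mice 2, 3, 5 and 6. The log2 difference was -0.09 (SE 0.07, interval -0.27 to 0.08, adjusted p = 0.54 in limma). A second probe of Hspa8 gave -0.19, but its pattern over the 8 mice followed the chosen probe only loosely (r = 0.28) and lay nearer to that of Dnaja1 (r = 0.94), so the probes disagree. Hsph1, an Hsp110 protein, had levels of 4.32, 4.33, 4.42 and 4.69 in the controls and of 4.23, 4.65, 3.84 and 4.33 in the NEKO mice. NEKO 5 lay lowest of the 8, and the log2 difference was -0.18 (SE 0.16, interval -0.56 to 0.20, adjusted p = 0.58 in limma). All 9 genes of the list of other Hsp70 and Hsp110 genes were tested and 0 were called, with a median of -0.00. They ranged from -0.22 to 0.30 (Hspa12b), and the next largest was Hspa1l (0.22), well above background on 4 of the 8 arrays.

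The J-domain members deliver clients to Hsp70 and stimulate its ATPase. Dnaja1 had levels of 4.28, 4.62, 4.62 and 4.49 in control mice 1, 4, 7 and 8 and of 4.15, 4.62, 4.10 and 4.54 in NEKO mice 2, 3, 5 and 6. NEKO 2 and NEKO 5 were the lowest mice and the other 2 NEKO mice lay among the controls. Its log2 difference was -0.15 (SE 0.15, interval -0.51 to 0.21, adjusted p = 0.62 in limma), and its other probes gave -0.06 and -0.12. Dnajb1, the stress-inducible partner of Hsp70 also known as Hsp40, had levels of 4.21, 4.68, 4.75 and 4.69 in the controls and of 3.99, 4.19, 4.32 and 4.69 in the NEKO mice. Control 1 lay apart from the other controls and among the NEKO mice. The log2 difference of -0.29 was the lowest of the 10 (SE 0.14, interval -0.61 to 0.04, adjusted p = 0.32 in limma), while its second probe gave -0.06. Of the other J-domain genes, 20 of 22 were tested and 0 were called, with a median of -0.02, and the largest were Dnajc12 (0.37) and Dnajc9 (-0.36).

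Hsp90aa1 encodes the inducible cytosolic Hsp90. Its levels were 5.81, 6.23, 6.14 and 6.04 in control mice 1, 4, 7 and 8 and 5.66, 5.99, 5.74 and 5.95 in NEKO mice 2, 3, 5 and 6. The groups overlapped only through control 1, which lay below NEKO 3 and NEKO 6. The log2 difference was -0.22 (SE 0.11, interval -0.49 to 0.05, adjusted p = 0.35 in limma), and the exact permutation test gave p = 0.114. Hspd1, the mitochondrial Hsp60, had levels of 6.62, 6.93, 6.80 and 6.46 in the controls and of 6.49, 6.47, 6.74 and 6.66 in the NEKO mice. The NEKO mice lay inside the control range, and the log2 difference was -0.11 (SE 0.07, interval -0.29 to 0.06, adjusted p = 0.45 in limma). The second probe of Hspd1 gave -0.09.

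**Figure D3:**
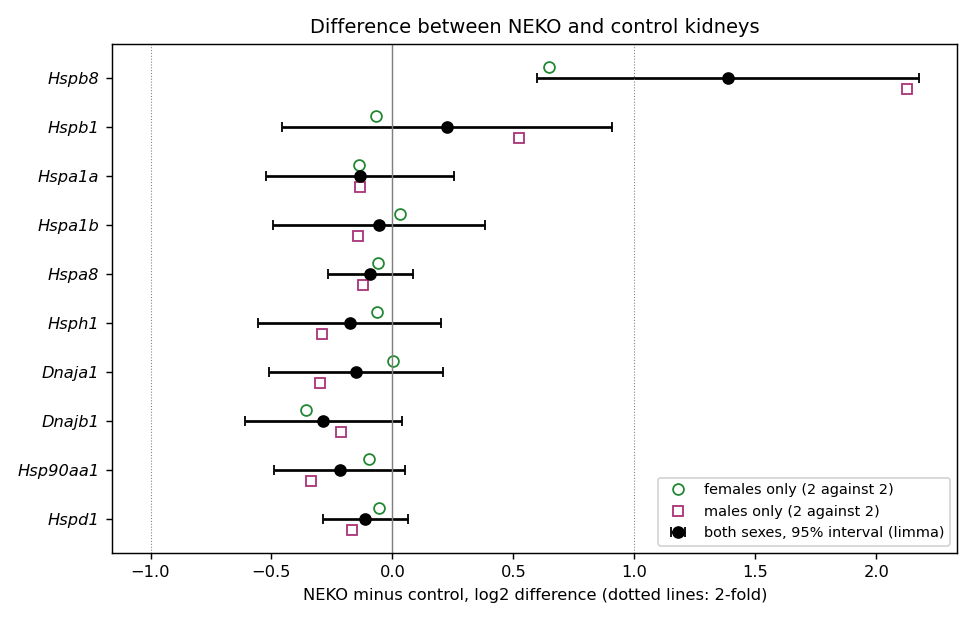
Log2 difference, NEKO minus control, of each member. Black points and bars are the limma estimate and its 95% interval over 4 mice against 4, green circles are the females alone and purple squares the males alone (2 against 2), and dotted lines mark a 2-fold change. Hspb8 is the member whose interval excludes 0, from 0.60 to 2.18, although its adjusted p was 0.128.

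The difference had the same sign in both sexes for 7 members and opposite signs for 3 (Hspa1b, Hspb1 and Dnaja1). No member passed the interaction test, and outside Hspb8 the adjusted interaction p was at least 0.787. The term for sex or slide called 0 of the members and 0.786% of all features. Males stood lower for 4 members, by 0.48 on the log2 scale for Hspa1a, 0.53 for Hspa1b, 0.24 for Hsph1 and 0.50 for Hspb1, and higher for the other 6, by up to 0.34 (Dnajb1). The smallest adjusted p of this term was 0.110, for Hspd1.

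NEKO 5 was the lowest of the 8 mice for Hspa1a, Hspa1b, Hsph1 and Dnaja1, while its Hspb8 was the second highest. Over the 45 pairs of members, Hspa1a and Hspa1b followed each other most closely (Pearson r = 0.96, exact permutation p = 0.000719, adjusted over the pairs 0.0324). Spearman's rho was 0.93 (exact permutation p = 0.00223, adjusted 0.0685). Without the 2 mice farthest from the median of Hspa1a, r was 0.85, and r was 0.93 after group and sex means were removed. Since RNA of either copy may bind the probes of the other, these may not be 2 separate readings. Dnaja1 and Hsp90aa1 followed each other with r = 0.91 (exact permutation p = 0.00203, adjusted 0.0428) and rho = 0.86 (exact permutation p = 0.0107, adjusted 0.0865). For them r was 0.80 without the 2 farthest mice and 0.96 after the means were removed. Hspa8 and Hspd1 had r = 0.90 (exact permutation p = 0.00285, adjusted 0.0428) and rho = 0.90 (exact permutation p = 0.00456, adjusted 0.0685). Without the 2 farthest mice r was 0.92, but it was 0.46 after the group and sex means were removed. Males stood higher for both Hspa8 (0.21 on the log2 scale) and Hspd1 (0.27). The permutations shuffled all 8 mice across groups and sexes, so the p-values of the pairs also take in shared shifts by group, sex or slide. Each slide holds 4 mice, too few for a value within it. For Hspa1a and Hspb8 r was -0.07, but it was 0.49 without the 2 farthest mice and 0.47 after the means were removed. The groups of Hspb8 lie apart, so the first value also takes in its group difference.

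**Figure D4:**
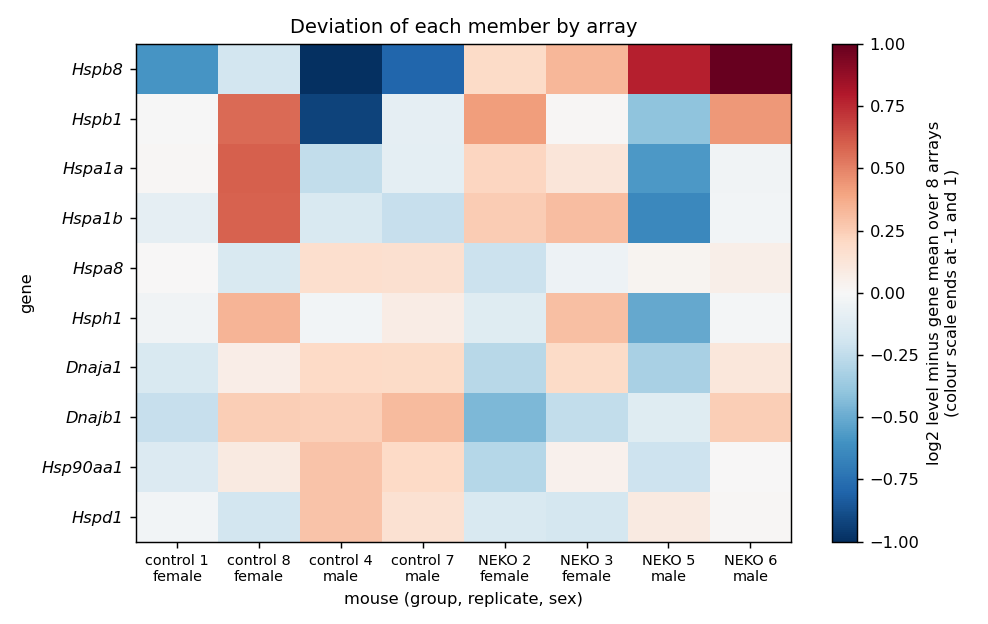
Deviation of each member from its own mean over the 8 mice, in log2 units, with red above and blue below the mean and the colour scale ending at -1 and 1. Rows are genes and columns are mice, ordered by group and sex. Hspb8 changes colour between the groups, while NEKO 5 and control 8 stand out for Hspa1a, Hspa1b and Hsph1.

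The mean of the centred members over the 8 mice was compared with every named gene. Not all members moved alike, so this mean blends unlike patterns. For example, Hspa1a and Hspd1 had r = -0.75 and rho = -0.90 (exact permutation p adjusted over the pairs 0.154 and 0.0685). The genes most like the mean were Supt3 (r = 0.95), Jpt1 (0.94), C1rb (0.93), Fastkd5 (0.93) and Cdk7 (0.92). Without NEKO 6 and control 8, the 2 farthest mice, their r lay between 0.79 (Jpt1 and C1rb) and 0.94 (Fastkd5). After group and sex means were removed, the genes most like the mean were Pcbp3 (0.99), Pygo2 (0.98), Batf3 (0.98), Bag3 (0.98) and Zmynd19 (0.98). Bag3 is a cochaperone of Hsp70 and the partner of Hspb8. All of these describe 8 arrays, and each gene was picked as one of the highest over all named genes.

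Of 91 further genes of the chaperone system in 9 lists, 86 were tested and 0 were called in either direction. At an unadjusted p under 0.05, 3 were higher and 12 lower (7.39% and 10.6% of all features). Their median difference was -0.03, equal to that of all features to the second decimal, and 84 of the 86 lay within 0.5 log2 units of 0. The exceptions were Bag2, a cochaperone that restrains the ubiquitin ligase Stub1, and Hsbp1l1, named for its likeness to a heat shock factor binding protein. Bag2 lay between -0.06 and 0.38 in the controls and between 0.62 and 1.47 in the NEKO mice, with no overlap. Its log2 difference was 0.90 (SE 0.20, adjusted p = 0.111 in limma). Hsbp1l1 lay between -1.61 and -0.95 and between -3.34 and -1.37, with a log2 difference of -1.19 (adjusted p = 0.118 in limma).

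The nucleotide exchange and binding partners of Hsp70 held both genes of these lists that lay apart with NEKO higher. The other was Bag3, between 1.12 and 1.43 in the controls and between 1.501 and 2.09 in the NEKO mice, with a log2 difference of 0.42 (SE 0.14, adjusted p = 0.20 in limma). Of the 86 genes, 8 lay apart with NEKO lower, among them Dnajc9 (adjusted p = 0.110 in limma) and Tomm34 (-0.43, adjusted p = 0.111 in limma). The shares of all features that lay apart were 3.89% with NEKO higher and 5.39% with NEKO lower. Tomm34 had the largest difference of the 16 other Hsp90 genes and cochaperones, followed by Ahsa2 (0.20), and the median of that list was -0.02. The heat shock factor genes Hsf1 and Hsf5 had differences of 0.00 and -0.12, and Hsf2 and Hsf4 had no probe that passed the filter. The 8 subunits of the chaperonin CCT had a median of -0.02 and the largest of them were Cct6a (0.23) and Tcp1 (-0.18). The 9 mitochondrial chaperones and proteases had a median of -0.09 and ranged from -0.25 (Grpel1) to 0.12 (Hspa9).

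The list of 17 other stress-inducible targets of heat shock factor 1 is 1 of the 9 chaperone lists above. Most of its genes also stand in another of those lists. All 17 were tested, 0 were called and the median was -0.04, with Bag3 and Cryab the farthest from 0. Reference lists of other responses were read in the same way. Of 15 immediate early genes tested, 0 were called, with a median of 0.15, and Egr2 (1.12) and Fos (0.83, well above background on 4 of the 8 arrays) had the largest differences. Of 11 hypertonicity response genes tested, 0 were called, with a median of -0.01. Slc14a2, a urea transporter of the inner medulla, had a log2 difference of -2.26 (adjusted p = 0.21 in limma). Its level was 2.02 to 2.89 in the controls and -2.26 to 2.52 in the NEKO mice, which overlap. Slc6a12, the betaine transporter, had -1.87 (adjusted p = 0.20 in limma, well above background on 6 of the 8 arrays). Its level was -2.87 to -1.94 in the controls and -5.97 to -2.32 in the NEKO mice, which overlap as well. Of 19 Nrf2 targets tested, 2 were called higher (Gpx2 and Txnrd1), against 0.097% of all features, with a median of 1.11. At an unadjusted p under 0.05 in limma, 17 of them were higher and 0 lower (7.39% and 10.6% of all features). The groups lay apart with NEKO higher for 9 (3.89% of all features). The lists share some genes, as Bag3 and Cryab stand in more than 1.

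**Figure D5:**
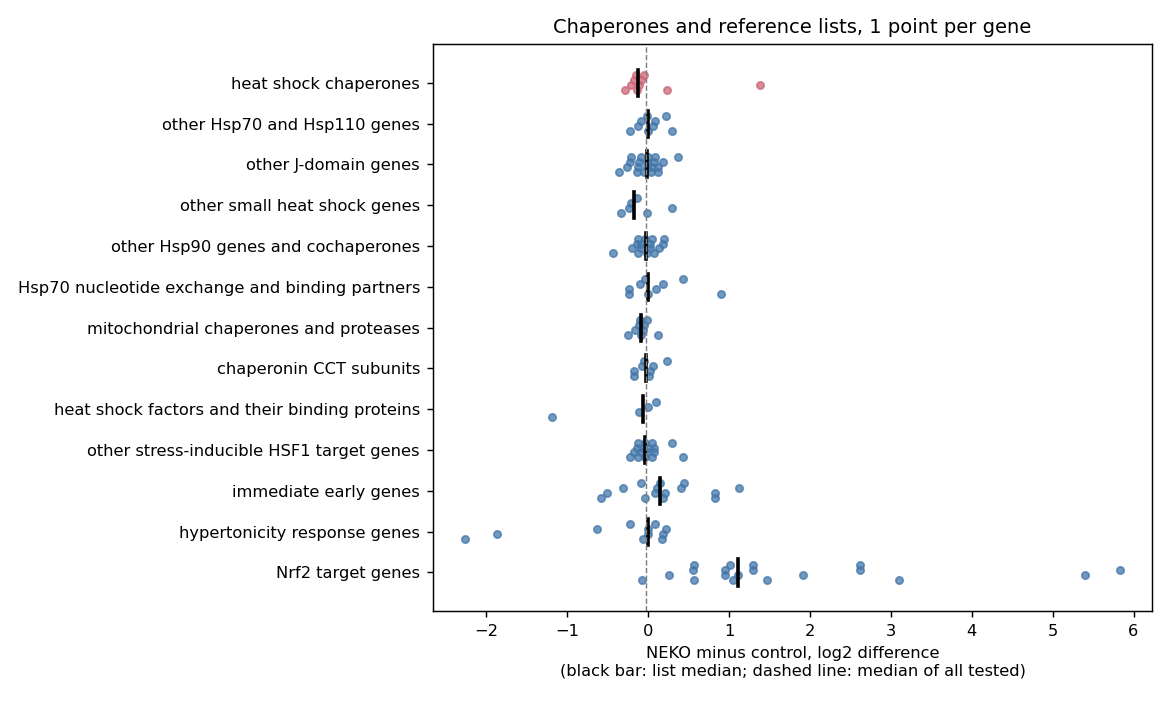
Log2 difference, NEKO minus control, of the 10 members (red) and of the tested genes of 12 reference lists (blue), 1 point per gene. Black bars are list medians and the dashed line is the median of all features tested, -0.03. The chaperone lists gather near 0 with medians between -0.18 and -0.00, whereas the Nrf2 targets have a median of 1.11.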

How the data were processed

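Kidney RNA of 4 NEKO and 4 control mice was measured on 8 Agilent 1-colour arrays. The authors deposited Feature Extraction 10.7.3.1 output with an intensity per spot, of which the processed signal has its background subtracted. A matrix of log2 values was deposited too, and 99.9% of them lay within 0.01 of values recomputed from the processed signals after scaling and centring per probe. The number of arrays limits the precision. Which mice share a litter is not given in the sources used here.

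Outlier spots were left out and the spots of a probe averaged. From each log2 processed signal, the array's 75th percentile over non-control probes was subtracted. Probes well above background on at least 4 arrays, with a value on at least 6, were kept, and the kept probe with the highest mean stood for its gene. Accessions matched RefSeq genes of GRCm38.p6 for 26690 of 41174 probes (18217 genes). Since the arrays are annotated on mm9, the only coordinates printed are those of RefSeq. limma 3.58.1 under R 4.3.3 fitted genotype with sex as a term, with Benjamini-Hochberg adjustment over 13570 named genes and 6023 unnamed transcripts, and an interaction in a second model. The fit was tested on simulated data. The paper's methods name Welch's unpaired comparison, run here as an alternative, and do not mention the arrays beside it. The members and lists were chosen with earlier results of these data known. Named genes are the 10 members, Keap1 and Nqo1, the called or 2 largest genes of each list and the 5 genes most like the mean of the members. Hsf1, Hspa9 and the cell type markers were chosen once their values were known. Alternatives were background correction, scaling, filters, probe choice, covariates, variance model, the methods' t-test, the deposited matrix and leaving out each mouse. Summed levels of marker lists are log2 of summed linear signals.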

Additional observations from a re-analysis of the deposited data

Results flagged for a closer look

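In the controls, the level of Dnajb1 in control 1 lay apart from the other 3, with a gap of 0.855 of the whole control range, more than Dixon's 95% limit for 4 samples allows. Nqo1 in control 4 lay below the other controls with a gap of 0.910 of the range. Of 24 groups of 4 mice examined, 2 were marked in this way, and chance marks about 1 in 20 groups. Control 1 was also the only control without K5-Cre, and whether this plays a part was not tested. Without control 1 the members called numbered 0 as before. The log2 difference of Dnajb1 was then -0.37 (adjusted p = 0.31 in limma), against -0.29 with all mice.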

How the results depend on the processing

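The paper states that the controls were littermates, but which mice share a litter is not given. The replicate numbers run from 1 to 8 over both groups and name no pairs. No paired analysis was therefore run, and any effect of litter was left out of the fits. The number of members called was 0 in both directions in limma and in every alternative save 2 that each called Hspb8 higher (1 member): the methods' t-test without adjustment and the average over females and males in the interaction model. Leaving out 1 mouse at a time kept the members called at 0 to 0 in both directions. All features called moved from 19 higher and 25 lower to 68 and 114 with normexp background correction, 8 and 12 with detection on all 8 arrays, 40 and 52 with a trend and robust eBayes, 35 and 63 with array weights, 0 and 1 with the methods' t-test after adjustment, 944 and 1268 before it, and 245 and 268 with the average over the sexes. Without the sex term 16 were lower. Leaving out 1 mouse gave 9 to 24 higher and 8 to 25 lower. The slide as a block is the same fit as sex. The difference of Hspa1b ranged from -0.21 to 0.085 and that of Hspb1 from -0.00010 to 0.40 when 1 mouse was left out. Interactions that changed sign were those of Hspa1a (-0.017 with normexp, -0.0065 with scaling to the median, -0.023 with the mean of kept probes, and -0.29 to 0.30 without 1 mouse), Hspa1b (-0.51 to 0.17), Hspa8 (-0.15 to 0.022), Hsph1 (-0.48 to 0.017) and Dnajb1 (-0.095 to 0.38). The causes were not tested. All 17 member probes were well above background on all 8 arrays, and 4 members were read from 1 probe each.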

Other observations

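In both groups the 4 mice ranked in the same order for Hspb8 and Nqo1, a pair chosen after the values were seen. In the controls the order from lowest to highest was control 4, 7, 1 and 8, with Nqo1 levels of 1.24, 2.35, 2.45 and 2.46. In the NEKO mice it was NEKO 2, 3, 5 and 6, with Nqo1 levels of 3.89, 4.41, 5.25 and 5.45. Controls 4 and 7 and NEKO 5 and 6 are the males, so each order also parts the sexes and the slides. Controls 1 and 8 differed little in Nqo1. The share of all features that rank like this was not computed, and a relation between Hspb8 and Nqo1 was not tested. The log2 difference of Nqo1 was 1.69 in the females and 3.55 in the males, and that of Hspb8 was 0.65 and 2.13. The groups lie apart in both genes, so no correlation over all 8 mice is given, and 4 mice per group are too few for one within a group.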
